A study of Mus musculus with 12 samples.

Results

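Transcripts of 10 inflammasome and IL-1 family genes were followed in tumor-associated macrophages (TAMs) sorted from mouse B16 melanoma tumors. The genes were Il1a, Il1b, Il1rn, Il18, Il18bp, Nlrp3, Pycard, Casp1, Casp4 and Gsdmd. They were chosen by symbol, and all 10 were found once in each of the deposited tables of 55401 genes. One table compared AMPK-KO TAMs with WT TAMs and the other late-stage with early-stage TAMs, with 3 samples a group. WT TAMs came from AMPKfl/fl mice and AMPK-KO TAMs from mice whose titles read AMPKfl/flLyz2cre/cre, so that floxed AMPK alleles were common to both. Early-stage and late-stage TAMs carried the genotype label WT and came from tumors of day 8 and day 15, and their treatment label, like that of the other samples, reads Non. The study's methods place the AMPK-KO and WT tumors at 15 days as well, and state that B16-F10 melanoma cells were implanted under the skin. They describe purchased C57BL/6 mice as female and 5 weeks of age, and give 5 weeks as the age of mice in the animal experiments. Their list of implanted mice names both floxed genotypes and ends with C57BL/6J female mice. Whether female there also covers the mice with floxed alleles is unclear. In the AMPK-KO mice the cre recombinase is driven from Lyz2, a gene of myeloid cells in general, so deletion is not limited to TAMs. The genotype labels of AMPK-KO replicates 2 and 3 write Lyz3 and Lyz4 in place of Lyz2. The labels do not say whether a sample held the cells of 1 animal or of several, and p-values describe only the spread between samples.

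IL-1β and IL-18 are made as inactive precursors, and their release as active cytokines needs an inflammasome, a protein complex in which a sensor such as NLRP3 gathers the adaptor ASC and the protease caspase-1. Caspase-1, and caspase-4 (called caspase-11 in mice), which recognizes bacterial lipopolysaccharide inside the cell, also cut gasdermin D, whose freed part forms pores in the cell membrane and causes pyroptosis. IL-1α and IL-1β act on a common receptor that the IL-1 receptor antagonist blocks, and IL-18 is held in check by a soluble binding protein. Macrophages are a main source of these cytokines, and transcription of Il1b is the step that inflammatory signals turn on first. Transcript levels say nothing of the cut, active proteins, which were not measured here.

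Counts are given as CPM, that is, scaled for the size of each library to a common total, and the quasi-likelihood test of edgeR was run over all genes with enough counts, 17532 in AMPK-KO against WT and 17630 in late-stage against early-stage TAMs. A gene passed when its p, adjusted by the Benjamini-Hochberg method over those genes, was under 0.05, and rose, fell and changed are used only of genes that passed. Library totals lay between 71019494 and 84470374 counts. Prkaa1, the gene of AMPKα1, had 4535 to 5165 counts in WT and 3285 to 3467 in AMPK-KO samples (log2 fold change −0.60, SE 0.07, adjusted p = 2.3e-04), counted over the whole gene and not over the deleted part. Lyz2 had 671 to 975 counts in WT and 676 to 1088 in AMPK-KO samples, against 88212 to 249165 in the early-stage and late-stage samples. The Lyz2cre allele carries cre inserted into Lyz2 and disrupts that gene, so the low Lyz2 of the libraries labelled WT goes against their label, which names no cre. This holds for all 3 of them, and WT and AMPK-KO are used here as the labels give them, with lower Prkaa1 in the latter. The reason for the low Lyz2 was not tested, and no AMPK-KO against WT value can be given without these libraries. Counts of 4 Y-linked genes summed to 3435 to 4035 in early-stage and 0 to 4 in late-stage samples, while Xist, which is expressed in female cells, had 13568 to 22094 and 23982 to 41700 counts. Stage and sex therefore cannot be told apart. In WT and AMPK-KO samples the Y-linked counts were 9229 or more and Xist had at most 158 counts, which is the pattern of male cells. Where the Y-linked counts of the early-stage samples came from, beside the stated female sex, was not tested. Macrophage markers were present throughout, Adgre1 (F4/80) at 864 to 971 CPM in group means, and the neutrophil marker Ly6g had no count in WT and AMPK-KO samples and at most 5 in the others.

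The genes lie on several chromosomes. Il1a (ENSMUSG00000027399.1, GRCm38 chr2:129299610-129309972) and Il1b (ENSMUSG00000027398.13, chr2:129364570-129371139) are neighbors on the minus strand, and Il1rn (ENSMUSG00000026981.15, chr2:24336853-24351494) lies on the same chromosome. Casp4 (ENSMUSG00000033538.13, chr9:5308828-5336783) and Casp1 are neighbors, and Il18 (ENSMUSG00000039217.13, chr9:50554827-50581840) is on the same chromosome. Il18bp (ENSMUSG00000070427.4, chr7:102014885-102018690) and Pycard (ENSMUSG00000030793.4, chr7:127989708-127993867) share another, while Nlrp3 (ENSMUSG00000032691.14, chr11:59541568-59566956) and Gsdmd (ENSMUSG00000022575.5, chr15:75862327-75867408) stand alone. The identifier of Casp1 (ENSMUSG00000025888.6) carries another version than in GENCODE M21, so no position is given for it. No other gene shared exon bases with a member on the same strand. On the opposite strand Il1a shares 222 exon bases with Gm14023 and Pycard 485 with Gm45205, both with few counts. Il18bp shares 80 exon bases with Numa1, which had up to 14660 counts, and Il1b shares 25 with Il1bos, which had at most 87 counts. Whether strand was used in counting is not stated, so reads over such shared bases cannot be told apart.

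Promoter sequences are shown for Il1a and Il1b, the cytokine pair that parted in AMPK-KO TAMs, and for Casp4, the only member with several matches to a searched motif. Each is the 250 bases before the RefSeq start on GRCm38.p6, on the minus strand for Il1a (chr2:129309973-129310222) and Il1b (chr2:129371140-129371389) and on the plus strand for the first of the starts of Casp4 (chr9:5308599-5308848). Capitals mark the TATA box letters TATAAA in Il1a and Il1b, and in Casp4, on either strand, an NF-κB motif written here as GGG and TTCC with any 3 bases between them.
Il1a: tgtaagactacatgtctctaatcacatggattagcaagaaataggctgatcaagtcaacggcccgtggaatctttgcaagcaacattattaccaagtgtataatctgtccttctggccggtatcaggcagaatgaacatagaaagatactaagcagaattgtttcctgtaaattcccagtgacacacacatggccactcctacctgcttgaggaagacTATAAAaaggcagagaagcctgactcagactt
Il1b: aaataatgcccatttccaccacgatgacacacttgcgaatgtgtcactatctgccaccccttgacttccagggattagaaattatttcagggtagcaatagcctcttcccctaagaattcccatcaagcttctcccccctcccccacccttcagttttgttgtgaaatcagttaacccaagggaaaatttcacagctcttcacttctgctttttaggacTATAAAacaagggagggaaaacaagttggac
Casp4: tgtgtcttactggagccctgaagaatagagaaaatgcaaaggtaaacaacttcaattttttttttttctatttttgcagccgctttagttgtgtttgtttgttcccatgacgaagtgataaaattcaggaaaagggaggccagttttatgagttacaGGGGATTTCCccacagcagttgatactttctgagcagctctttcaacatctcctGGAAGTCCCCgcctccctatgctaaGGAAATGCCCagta

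Il1a and Il1b carried TATAAA beginning at positions −32 and −31 from the start, and no other member with a window had it on the gene's strand in the last 40 bases, where 2.31% of the 32851 promoter windows hold it. Casp4 held the NF-κB motif at 3 places, the first at position −93, where 4.65% of windows have any match and 0.0183% have 3 or more. Its other annotated start, 11 bases on, shares these matches. Of the other members only Il1rn had such a match, before 1 of its 3 starts, and Pycard had a match to GAGGAAGT, the letters of a PU.1 site (2.44% of windows). All motifs but TATAAA were searched on both strands. A motif of interferon regulatory factors, GAAA and GAAA with any 2 bases between them, was in no member's window (2.98% of all windows). No window was given for Gsdmd. The motifs were picked after the values of the genes were known, and a match is a description of letters only.

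In AMPK-KO TAMs, Il1b and Il18bp were 2.07-fold and 2.04-fold higher than in WT TAMs, whereas Il1a and Il1rn did not pass the test. The pore-former gene Gsdmd and the inflammatory caspase genes Casp4 and Casp1 rose by 1.43-fold, 1.33-fold and 1.202-fold. The sensor gene Nlrp3 rose 1.202-fold, and Il18 fell to 83.4% of WT. Altogether 7 of the 10 genes passed, 6 of them higher, where 21.1% of all genes tested passed. With an added fold threshold (absolute log2 fold change above 1) 2 passed, Il1b and Il18bp, both higher, against 3.34% of all genes and 2.05% higher. At an unadjusted p under 0.05 it was 8 of the 10, against 32.6% of all genes. Of 6 monocyte markers 3 were higher in AMPK-KO samples as well, and in bulk samples fewer cells of a type and less RNA per cell cannot be told apart. The groups did not overlap for 9 of the 10, as for 37.2% of all genes. The median log2 fold change was 0.27 over the 10 genes and −0.0037 over all genes.

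**Figure D1:**
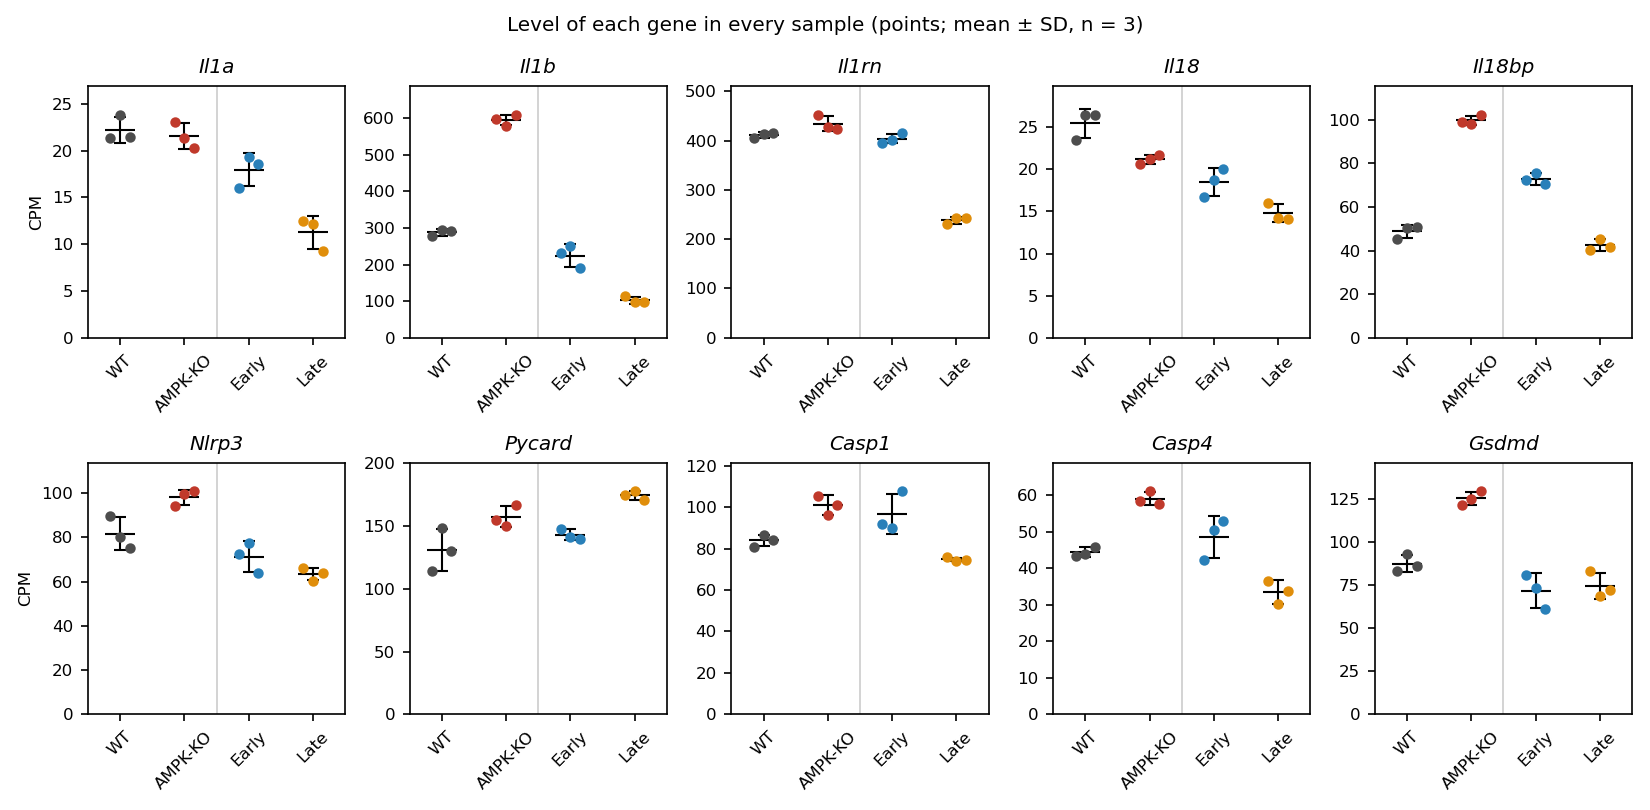
CPM of each gene in every sample, with a panel a gene, the 4 groups on the horizontal axis, and mean ± SD (n = 3) as bars. Il1b and Il18bp stand far apart between AMPK-KO and WT, Il1a overlaps there but not between the stages, and Pycard is higher in late-stage samples.

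Il1b encodes the cytokine IL-1β. It stood at 278, 294 and 292 CPM in WT samples 1 to 3 and at 597, 580 and 609 CPM in AMPK-KO samples 1 to 3. Every AMPK-KO sample was far above every WT sample, and samples of a group lay close together (log2 fold change 1.05, SE 0.04, adjusted p = 2.6e-07). Il1a, whose product IL-1α can act without cutting by caspase-1, stood at 21.3, 23.8 and 21.5 CPM in WT and 23.1, 21.4 and 20.3 CPM in AMPK-KO samples. The groups overlapped, and the 95% interval of the log2 fold change, −0.23 to 0.15, does not reach the change of Il1b (adjusted p = 0.792). Il1rn, which encodes the receptor antagonist, had 405, 413 and 416 CPM in WT and 452, 427 and 423 CPM in AMPK-KO samples. All 3 AMPK-KO values were above the WT values by a small margin, and the difference did not pass (log2 fold change 0.08, 95% interval −0.02 to 0.18, adjusted p = 0.260).

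Il18bp encodes the protein that binds and neutralizes IL-18. Its level was 45.4, 50.1 and 50.7 CPM in WT and 98.8, 97.9 and 102 CPM in AMPK-KO samples, without overlap (log2 fold change 1.03, SE 0.06, adjusted p = 1.5e-06). Il18 itself had 23.4, 26.4 and 26.4 CPM in WT and 20.6, 21.3 and 21.7 CPM in AMPK-KO samples. It went the other way from its binding protein, with all AMPK-KO samples below all WT samples (log2 fold change −0.26, SE 0.08, adjusted p = 0.0433). The fall of Il18 lost its call without WT replicate 2 (adjusted p = 0.124), WT replicate 3 (0.148), or AMPK-KO replicate 1 (0.135), 2 (0.120) or 3 (0.0696), and with no filter on low counts (0.0578).

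Nlrp3, the sensor, had 89.7, 80.1 and 75.1 CPM in WT and 94.2, 99.4 and 101 CPM in AMPK-KO samples. The lowest AMPK-KO sample was only slightly above the highest WT sample (log2 fold change 0.27, SE 0.07, adjusted p = 0.0210). This call was lost without WT replicate 2 (adjusted p = 0.0601), WT replicate 3 (0.118), AMPK-KO replicate 2 (0.0881) or AMPK-KO replicate 3 (0.0682). Pycard, which encodes the adaptor ASC, varied most among WT samples, at 114, 148 and 130 CPM, against 155, 150 and 167 CPM in AMPK-KO samples (log2 fold change 0.27, SE 0.09, adjusted p = 0.0511). It passed without WT replicate 2 (adjusted p = 0.00726), and also under DESeq2 (0.0111), RLE scaling (0.0492), at least 10 counts in every library (0.0370) and the replicate block (0.0263).

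Gsdmd, the pore former, stood at 83.3, 93.2 and 86.1 CPM in WT and 121, 125 and 129 CPM in AMPK-KO samples. It had the highest rise among the genes of the cutting and pore-forming step (log2 fold change 0.52, SE 0.06, adjusted p = 1.3e-04). Casp4 had 43.4, 44.0 and 45.9 CPM in WT and 58.3, 61.0 and 57.5 CPM in AMPK-KO samples (log2 fold change 0.41, SE 0.06, adjusted p = 6.1e-04). Casp1 had 81.0, 86.6 and 84.2 CPM in WT and 106, 96.1 and 101 CPM in AMPK-KO samples (log2 fold change 0.27, SE 0.06, adjusted p = 0.00722). For these 3 genes the groups did not overlap, and each passed under all 12 alternatives tried, as Il1b and Il18bp did.

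In late-stage against early-stage TAMs most of the 10 genes fell. Il1b fell to 46.0% of its early-stage level, Il18bp to 58.2%, Il1rn to 59.0% and Il1a to 62.7%, while Casp4 and Casp1 fell to 69.1% and 77.6%. Pycard rose 1.22-fold, and Gsdmd, Nlrp3 and Il18 did not pass. Thus 7 of the 10 genes passed, 6 of them lower, where 9.18% of all genes tested passed. With the added fold threshold Il1b alone passed, against 1.87% of all genes, and no member was higher, against 0.601%. At an unadjusted p under 0.05 it was 8 of the 10, against 24.5% of all genes. The groups did not overlap for 8 of the 10 genes, as for 31.2% of all genes, and the median log2 fold change was −0.45 over the 10 genes and 0.0027 over all genes.

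**Figure D2:**
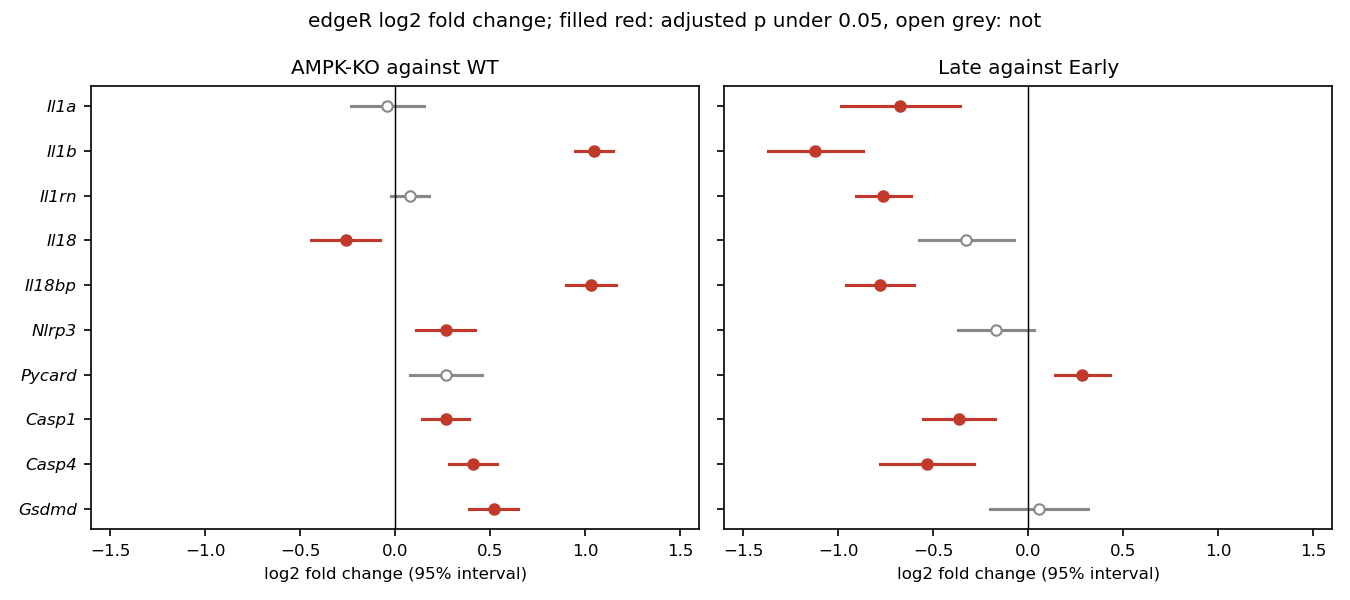
Log2 fold change of each gene with its 95% interval in the 2 comparisons, on a common horizontal axis, filled red where the adjusted p was under 0.05. Il1b and Il18bp lie near 1 in AMPK-KO against WT and at −1.12 and −0.78 in late-stage against early-stage TAMs, while the interval of Il1a spans 0 only in the first.

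Il1b had 232, 251 and 190 CPM in early-stage samples 1 to 3 and 114, 97.2 and 97.8 CPM in late-stage samples 1 to 3. Early-stage samples were more spread out, but the lowest was above every late-stage sample (log2 fold change −1.12, SE 0.11, adjusted p = 3.4e-04). Il1rn had 396, 402 and 415 CPM in early-stage and 230, 242 and 243 CPM in late-stage samples (log2 fold change −0.76, SE 0.06, adjusted p = 1.3e-04), the smallest adjusted p of the 10 genes in this comparison. Il1a had 15.97, 19.4 and 18.6 CPM in early-stage and 12.4, 12.1 and 9.25 CPM in late-stage samples, without overlap (log2 fold change −0.67, SE 0.14, adjusted p = 0.0170). The call for Il1a was lost without early-stage replicate 2 (adjusted p = 0.0892), late-stage replicate 2 (0.0555) or late-stage replicate 3 (0.0716).

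Il18bp had 72.2, 75.6 and 70.6 CPM in early-stage and 40.1, 45.5 and 41.5 CPM in late-stage samples, tight groups far apart (log2 fold change −0.78, SE 0.08, adjusted p = 3.9e-04). Il18 had 16.7, 18.7 and 20.1 CPM in early-stage and 15.99, 14.3 and 14.1 CPM in late-stage samples. Its groups did not overlap, but the difference did not pass (log2 fold change −0.33, 95% interval −0.58 to −0.07, adjusted p = 0.107) except without early-stage replicate 1 (adjusted p = 0.0415).

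Casp4 had 42.1, 50.4 and 53.0 CPM in early-stage and 36.6, 30.1 and 33.8 CPM in late-stage samples (log2 fold change −0.53, SE 0.11, adjusted p = 0.0170). Casp1 had 91.9, 90.1 and 108 CPM in early-stage and 75.8, 74.2 and 74.7 CPM in late-stage samples (log2 fold change −0.37, SE 0.08, adjusted p = 0.0260). Both caspase genes were lower in every late-stage sample. Without early-stage replicate 2, late-stage replicate 2 or late-stage replicate 3 the adjusted p of Casp4 was 0.0902, 0.0900 or 0.0751, and that of Casp1 was 0.0605, 0.120 or 0.112, and Casp1 had 0.0932 without late-stage replicate 1 and 0.0562 with no filter on low counts.

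Pycard was the only one of the 10 genes to rise, from 148, 141 and 140 CPM in early-stage to 175, 178 and 171 CPM in late-stage samples (log2 fold change 0.29, SE 0.07, adjusted p = 0.0252). Its call was lost without early-stage replicate 2 (adjusted p = 0.116) or late-stage replicate 1 (0.0952), 2 (0.139) or 3 (0.0989), and with the replicate block (0.0551). Gsdmd had 81.1, 73.1 and 61.1 CPM in early-stage and 83.2, 68.7 and 72.0 CPM in late-stage samples, overlapping throughout (log2 fold change 0.06, 95% interval −0.20 to 0.31, adjusted p = 0.812), and the sign turned without early-stage replicate 3 (−0.05) or late-stage replicate 1 (−0.03). Nlrp3 had 72.7, 77.5 and 63.8 CPM in early-stage and 66.0, 60.4 and 63.9 CPM in late-stage samples, which overlapped as well (log2 fold change −0.17, 95% interval −0.37 to 0.03, adjusted p = 0.280). Without early-stage replicate 2, late-stage replicate 2 or late-stage replicate 3 only 3 of the 10 genes passed, and Il1b, Il1rn and Il18bp passed under all 12 alternatives tried.

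The comparisons share no sample, and their values can be set side by side. Il1b, Il18bp, Casp1 and Casp4 rose in AMPK-KO TAMs and fell in late-stage TAMs, a pattern of 246 of the 16812 genes tested in both (1.46%). No member passed in the same direction in both, where 456 of the 16812 genes (2.71%) did. At day 15, WT TAMs and late-stage TAMs had Il1b at 288 ± 8.70 and 103 ± 9.68 CPM (SD, n = 3), and Il1rn at 411 ± 5.77 and 238 ± 7.12 CPM. These levels come from separate tables, and their difference was not tested. The samples are unlike in other ways too. Lyz2 had 671 to 975 counts in WT and 88212 to 93224 in late-stage samples. The 4 Y-linked genes summed to 9229 to 11360 and 0 to 4 counts.

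Ratios of 2 genes within a library do not depend on scaling between libraries. There were 1.43 ± 0.0267 (SD, n = 3) Il1rn counts for each Il1b count in WT and 0.729 ± 0.0317 (SD, n = 3) in AMPK-KO samples, a log2 difference of −0.97 with no overlap (p = 0.1 in an exact permutation test, two-sided, where 3 against 3 allows no smaller value). The antagonist was thus counted more often than the cytokine in WT and less often in AMPK-KO samples, before allowing for the length of the transcripts. In early-stage and late-stage samples the ratio was 1.83 ± 0.311 and 2.33 ± 0.273, and the groups overlapped (exact permutation test, p = 0.2).

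The ratio of Il18bp to Il18 was 1.92 ± 0.0200 (SD, n = 3) in WT and 4.70 ± 0.0926 (SD, n = 3) in AMPK-KO samples, a log2 difference of 1.29 (exact permutation test, p = 0.1). It went the other way with stage, from 3.96 ± 0.411 in early-stage to 2.88 ± 0.345 in late-stage samples, a log2 difference of −0.46 (exact permutation test, p = 0.1). The ratio of Casp4 to Casp1 was 0.529 ± 0.0193 in WT and 0.586 ± 0.0435 in AMPK-KO samples, with a log2 difference of 0.14 (exact permutation test, p = 0.1), and 0.504 ± 0.0514 and 0.447 ± 0.0390 in early-stage and late-stage samples, which overlapped (exact permutation test, p = 0.2). Over these 6 comparisons no p can fall under 0.1 before adjustment.

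**Figure D3:**
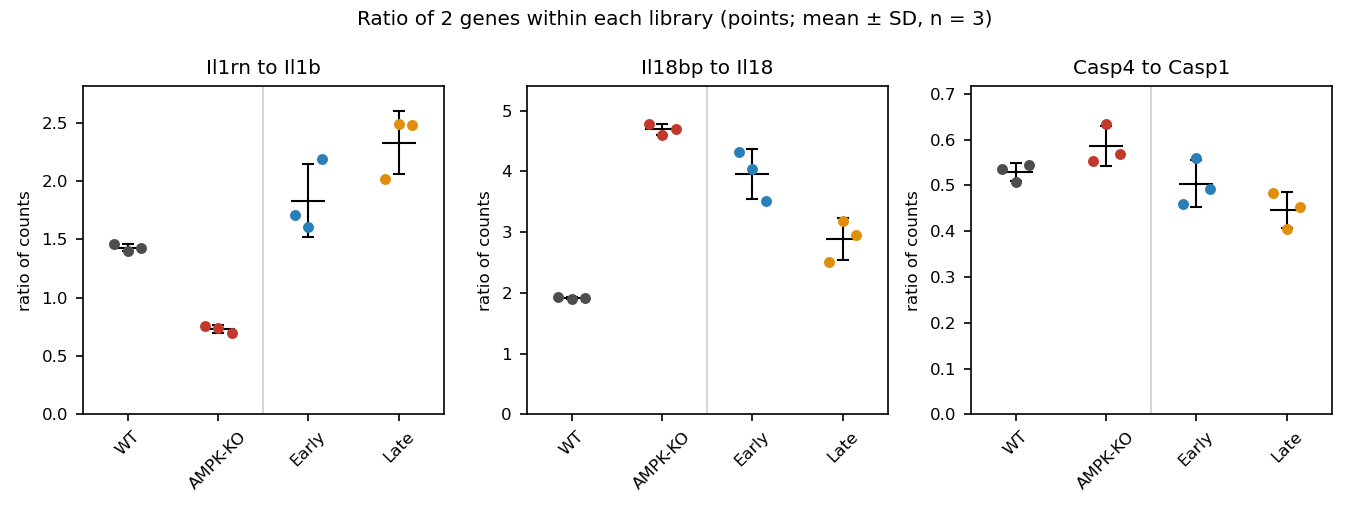
Ratio of the counts of 2 genes within each library (points) with mean ± SD (n = 3), for antagonist to cytokine, binding protein to cytokine, and the inflammatory caspases. Il1rn to Il1b is below 1 only in AMPK-KO samples, and Il18bp to Il18 is lowest in WT and highest in AMPK-KO samples.

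Levels were compared between genes per kilobase of annotated exon. The length was the union of all annotated exons of a gene (3800 bases for Pycard, 5535 for Il1rn), which can exceed that of a single transcript. The order of the genes therefore depends on the annotation. For Casp1 the length was that of the GENCODE M21 version of its identifier (ENSMUSG00000025888.5). In plain CPM, late-stage Il1rn (238) and Pycard (174) were above Il1b (103). Il1b was the highest of the 10 in each group, at 151 ± 4.56 CPM per kb in WT, 312 ± 7.74 in AMPK-KO, 117 ± 16.4 in early-stage and 54.0 ± 5.08 in late-stage TAMs (SD, n = 3), and Il1a was the lowest, from 5.71 ± 0.891 in late-stage to 11.2 ± 0.706 in WT TAMs. In WT the order below Il1b was Il1rn, Casp1, Gsdmd, Pycard, Il18, Nlrp3, Il18bp, Casp4 and Il1a. Neighbors in that order had ranges apart except Gsdmd with Pycard and Casp4 with Il1a. In AMPK-KO the ranges of all neighbors were apart, and Il18bp had moved above Nlrp3 and Il18, at 32.9 ± 0.735 CPM per kb. In late-stage TAMs Casp1 (50.04 ± 0.531) and Pycard (45.9 ± 0.910) stood above Il1rn (43.0 ± 1.29), while Nlrp3, Il18 and Il18bp were near 14 to 16 CPM per kb with overlapping ranges. In early-stage TAMs Il1rn overlapped with Casp1 and Il18 with Nlrp3.

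**Figure D4:**
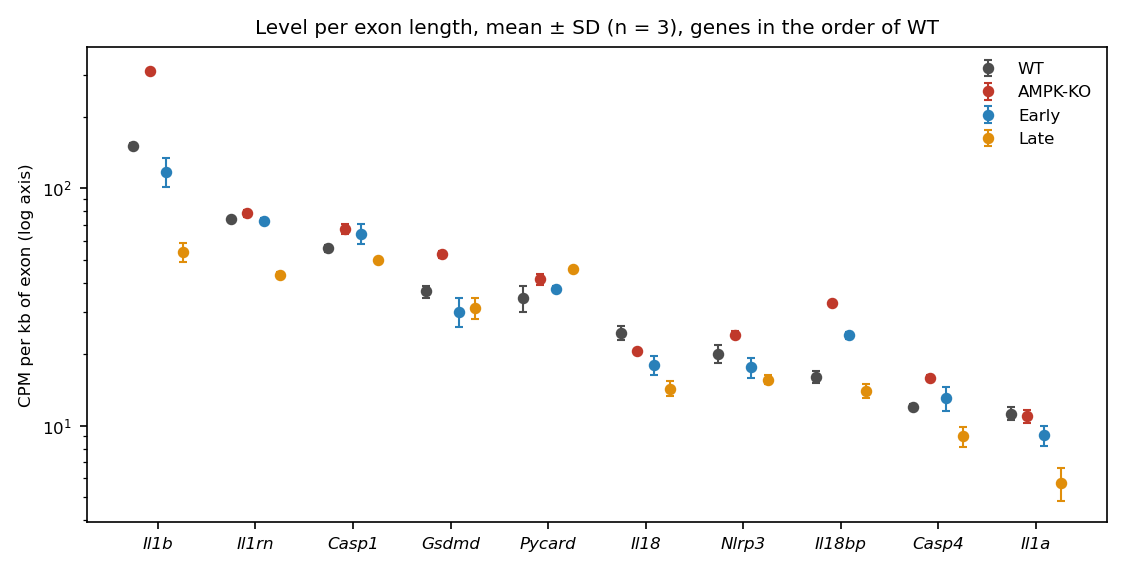
CPM per kb of exon on a log axis, mean ± SD (n = 3), for the 10 genes in the order of WT and the 4 groups by color. Il1b is at the top in each group and spans from 54.0 in late-stage to 312 in AMPK-KO TAMs, a wider span than for the other genes.

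The genes with profiles closest to a member were sought for Il1b, Il1a and Il18bp, the 3 members with the widest range over the 12 samples. Likeness was the root mean square distance between log2 CPM profiles, each centered within its table, over 16811 other genes. Closest to Il1b were F10 (coagulation factor X, distance 0.0928), Nos2 (inducible nitric oxide synthase, 0.106) and Tarm1 (0.129), with log2 fold changes of 1.07, 0.99 and 0.92 in AMPK-KO and −1.30, −1.16 and −1.23 in late-stage TAMs. Closest to Il18bp were Plxdc2 (0.0752), AA467197 (0.0775) and Tgtp1 (0.0954), an interferon-inducible GTPase with a near-identical copy whose counts are less certain. Closest to Il1a were Gm6377 (0.101), Trim30c (0.114) and Ublcp1 (0.117).

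The other genes of the pathway were taken from a list of 51, of which 50 were in the tables (not Irgb10 under that symbol) and 45 had enough counts in each comparison. In AMPK-KO TAMs 23 of the 45 passed, 21 higher and 2 lower, beside 11.3% of all genes tested that were higher and 9.78% that were lower. The median log2 fold change of the list was 0.23. In late-stage TAMs 7 of the 45 passed, 1 higher and 6 lower, beside 4.31% of all genes higher and 4.88% lower, with a median of −0.10. The late-stage count ranged from 2 (without early-stage replicate 2 or late-stage replicate 2) to 9 (without early-stage replicate 1), with 3 without late-stage replicate 1 or 3. It was 2 with no filter on low counts and 3 with the replicate block.

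Of 11 sensor genes tested, 6 rose in AMPK-KO TAMs and none fell, beside 11.3% of all genes higher and 9.78% lower. Mefv, which encodes the sensor pyrin, stood at 41.8 ± 1.10 CPM in WT and 72.2 ± 1.48 CPM in AMPK-KO samples (SD, n = 3) and rose (log2 fold change 0.79, adjusted p = 5.2e-06). It was also the only sensor gene to change with stage, with 26.1 ± 0.660 CPM in early-stage and 10.9 ± 3.56 CPM in late-stage samples (log2 fold change −1.26, adjusted p = 0.00417). Nlrp1b and Nlrp1a, near copies of each other, had log2 fold changes of 0.78 and 0.62 in AMPK-KO TAMs, and Naip2, Naip5 and Aim2, a sensor of cytosolic DNA, had 0.47, 0.31 and 0.37. The Naip and Nlrp1 genes are families of similar genes, and their counts are less certain. Nlrc4 was at 19.2 and 19.3 CPM in WT and AMPK-KO TAMs.

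Among 11 activators and regulators of assembly, 6 rose and 1 fell in AMPK-KO TAMs, beside 11.3% and 9.78% of all genes. The largest changes were in Gbp2, Gbp5 and Irf1, which act in interferon-driven activation of inflammasomes. Gbp2 went from 200.4 CPM in WT to 462 CPM in AMPK-KO TAMs (1.204 on the log2 scale, adjusted p = 1.2e-07), Gbp5 from 69.3 to 154 (1.154, adjusted p = 4.1e-06) and Irf1 from 144 to 299 (1.06, adjusted p = 3.3e-07). Reads may be shared between guanylate-binding protein genes. Nek7, a kinase that binds NLRP3, Txnip and Trim30a rose by less (0.27, 0.18 and 0.18), and Serpinb1a, an inhibitor of inflammatory proteases, fell (−0.47, adjusted p = 0.0262). With stage, P2rx7, the ATP-gated channel upstream of NLRP3, rose (0.29, adjusted p = 0.0453) and Gbp5 fell (−0.34, adjusted p = 0.0306). Of the other effectors, Ninj1, whose product ruptures the membrane after pore formation, fell in both comparisons, to 290 CPM from 464 CPM in AMPK-KO (log2 fold change −0.68, adjusted p = 1.4e-05) and from 346 to 252 CPM in late-stage TAMs (−0.46, adjusted p = 0.0376), and Casp12 rose in AMPK-KO TAMs from 1.64 to 3.84 CPM (1.23, adjusted p = 0.00683). Thus Ninj1 went against Gsdmd in AMPK-KO TAMs.

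**Figure D5:**
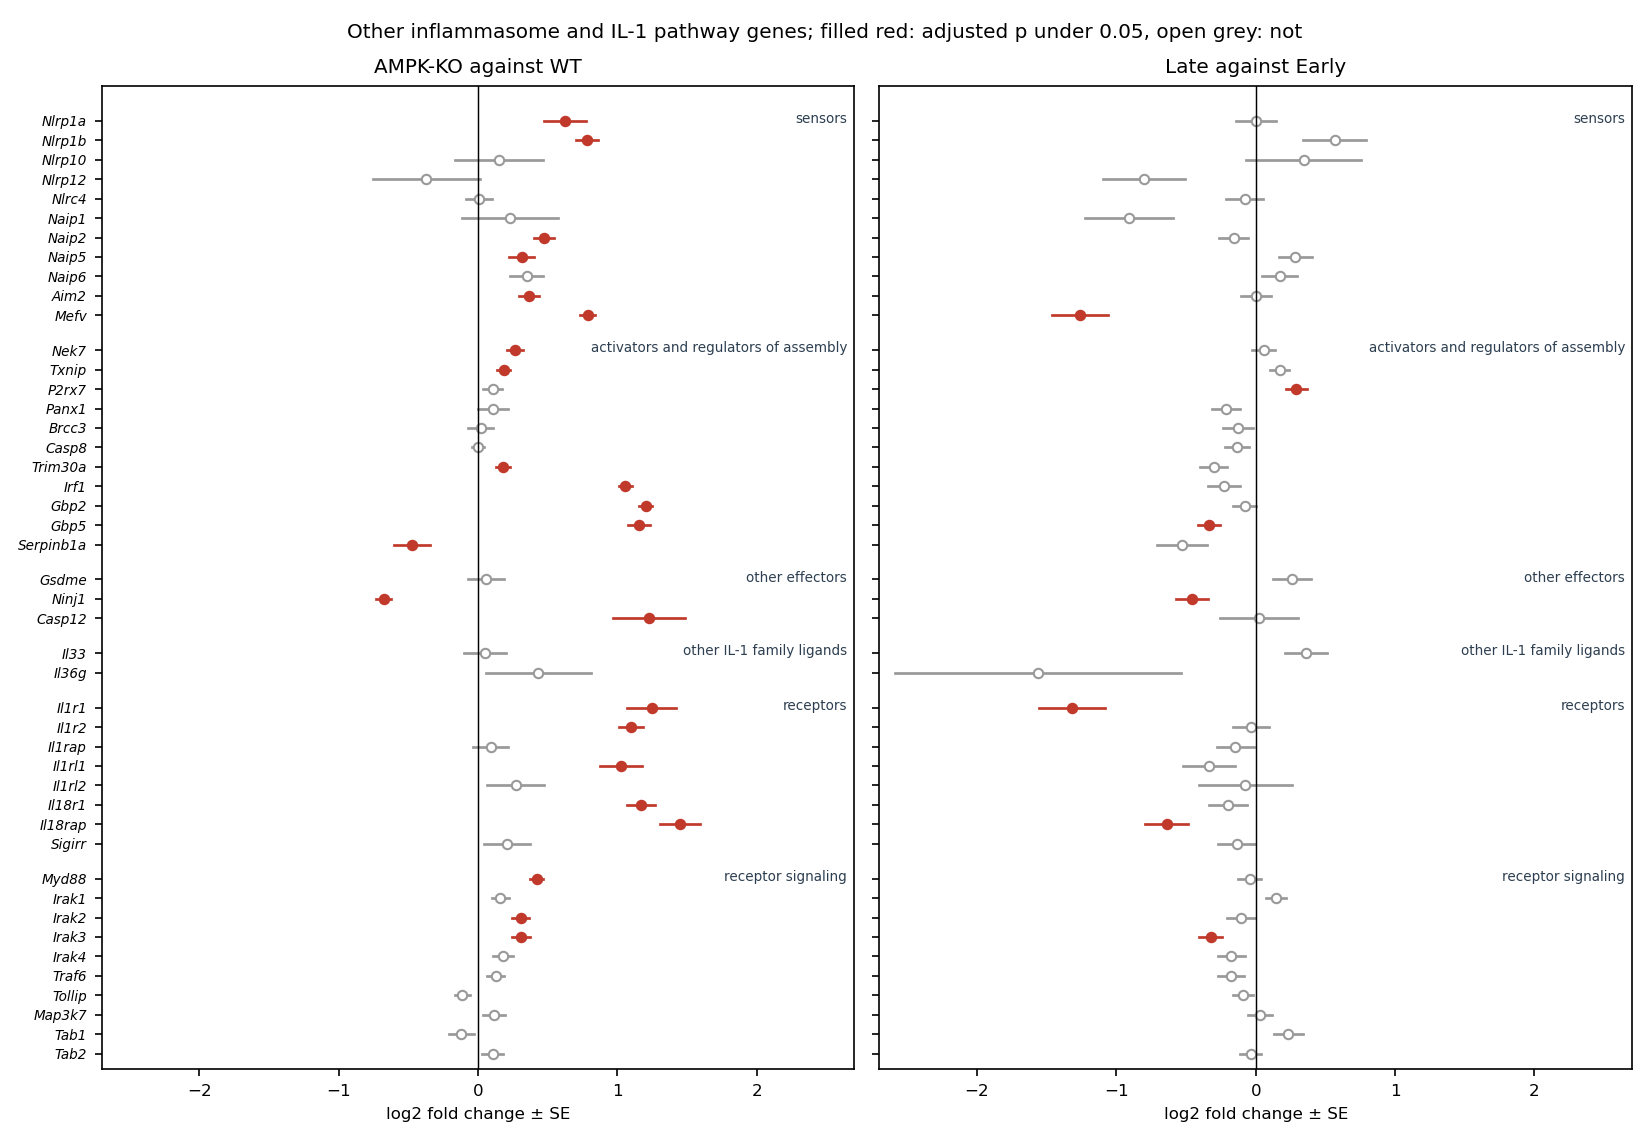
Log2 fold change ± SE of 45 other pathway genes, grouped by role, in AMPK-KO against WT (left) and late-stage against early-stage TAMs (right), filled red where the adjusted p was under 0.05. Most red points lie right of 0 on the left and left of 0 on the right.

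Receptor genes were low but changed in AMPK-KO TAMs, where 5 of 8 rose and none fell. Over all genes tested, 11.3% were higher and 9.78% lower there, and 4.31% higher and 4.88% lower in late-stage TAMs. Il18rap and Il18r1, the chains of the IL-18 receptor, had 10.4 and 7.47 CPM in WT and rose to 28.6 CPM (log2 fold change 1.45, adjusted p = 5.1e-05) and 16.8 CPM (1.17, adjusted p = 2.1e-05). Il1r1, the signaling receptor of IL-1, rose from 1.77 to 4.21 CPM (1.25, adjusted p = 6.3e-04), the decoy receptor Il1r2 from 17.02 to 36.4 CPM (1.10, adjusted p = 1.2e-05) and the IL-33 receptor Il1rl1 from 3.45 to 7.02 CPM (1.02, adjusted p = 8.3e-04). With stage Il1r1 fell from 3.997 to 1.603 CPM (−1.32, adjusted p = 0.00758) and Il18rap from 13.9 to 8.91 CPM (−0.64, adjusted p = 0.0318). Of 10 genes of receptor signaling 3 rose in AMPK-KO TAMs, namely Myd88 (0.42, adjusted p = 1.4e-04), Irak2 and Irak3 (0.31 each), and Irak3, an inhibitor of the pathway, fell with stage (−0.32, adjusted p = 0.0419). Of the 6 other IL-1 family ligands only Il33 and Il36g (listed as Il1f9) had enough counts, and neither passed in either comparison.

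Markers of other cell types moved with the groups, and their part in the results above was not tested. The marker counts below stand beside 11.3% of all genes higher and 9.78% lower in AMPK-KO samples. By stage the shares were 4.31% higher and 4.88% lower. In AMPK-KO against WT samples 3 of 6 monocyte markers were higher (Ly6c2, Ccr2 and Plac8), and the list summed to 515 to 545 CPM in WT and 835 to 863 in AMPK-KO samples. In late-stage samples 5 of the 6 were lower, and the sum was 562 to 673 CPM in early-stage and 228 to 259 in late-stage samples. The monocyte markers thus moved in the direction of Il1b in both comparisons.

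Of 10 neutrophil markers 4 were higher in AMPK-KO samples (sum 112 to 119 CPM in WT and 184 to 186 in AMPK-KO), most of it Csf3r, while Ly6g and Ngp had no counts there and S100a8 and S100a9 were under 3 CPM in group means. With stage 2 of the 10 were lower (121 to 128 and 105 to 110 CPM), with Ngp at 0 in late-stage and Ly6g at 0 in early-stage samples. T and NK cell markers were higher for 6 of 7 in AMPK-KO samples (sum 70.0 to 77.1 CPM in WT and 141 to 149 in AMPK-KO), beside the rise of Il18r1 and Il18rap, which these cells express, and with stage 1 was higher and 2 were lower (117 to 127 and 124 to 151 CPM). Dendritic cell markers were higher for 6 of 7 in AMPK-KO samples (80.7 to 91.1 and 125 to 132 CPM) and with stage 1 was higher and 1 lower (89.7 to 98.0 and 93.5 to 100.4 CPM). B16 melanoma markers were lower for 6 of 6 in AMPK-KO samples (919 to 925 and 614 to 644 CPM) and for 4 of 6 in late-stage samples (1546 to 1667 and 701 to 1133 CPM). The 7 macrophage markers summed to 7527 to 7965 CPM in WT and 7911 to 7977 in AMPK-KO samples, with 2 higher and 1 lower, and to 6246 to 7079 and 7305 to 7334 CPM in early-stage and late-stage samples, with 1 higher.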

How the data were processed

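Per the methods and the submitters' processing notes, the authors mapped filtered reads with HISAT2 (mm10, GRCm38; the methods write GRCh38), used featureCounts to assign them to genes, and deposited raw counts, 1 table per comparison. Tool versions and the handling of strand and multiply mapped reads are not given in the sources used here. Genes were filtered with filterByExpr, scaled by TMM and compared by the quasi-likelihood functions of edgeR 4.0.16 (R 4.3.3), with no covariate and separately for each table. Benjamini-Hochberg adjustment of p-values covered all genes tested. Intervals of log2 fold changes are 95% intervals from the standard error. The test was checked on simulated data. The members and gene lists were chosen with earlier results of these data known. Named are the 10 members, pathway genes that passed with an absolute log2 fold change above 1, the pathway gene with the smallest adjusted p per role and direction, and the 3 nearest profiles of 3 members. Other pathway genes were named after their values were seen. Gene lengths and positions came from GENCODE M21 and promoter windows from RefSeq (9 of the 10 members). The alternatives tried were scaling by RLE or by upper quartiles, DESeq2 1.42.0, a filter of 1 count only, a filter of 10 counts per library, a replicate block, and leaving out each library. Plots used matplotlib 3.10.9 and pandas 2.3.3. The result for 1 further searched motif is not reported here.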

Additional observations from a re-analysis of the deposited data

How the results depend on the processing

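The number of genes that passed was 3693 in AMPK-KO against WT and 2414 to 4039 with a library left out. In late-stage against early-stage TAMs it was 1619, and 653 to 2835 with a library left out, 2661 with DESeq2 and 936 with no filter beyond 1 count. Of the 10 members, 5 to 7 passed in AMPK-KO against WT and 3 to 8 in late-stage against early-stage TAMs with a library left out. Of the other pathway genes, 18 to 24 passed in AMPK-KO against WT and 2 to 9 by stage with a library left out, and by stage 2 with no filter. The labels do not say whether replicate numbers pair the samples. Deviations from group means correlated at −0.0039 to 0.0423 between same-numbered samples and at −0.0611 to 0.0472 between the others. Such values show no effect shared by replicate number but cannot settle whether samples were paired. With the replicate block 3862 genes passed in AMPK-KO against WT, and by stage 3 pathway genes. There it also cost Pycard its call (adjusted p = 0.0551), and it gave one to Pycard in AMPK-KO against WT (adjusted p = 0.0263). The log2 fold change of Il1a in AMPK-KO against WT reversed without WT replicate 2 and lay between -0.0919 and 0.0124 with a library left out. That of Gsdmd by stage reversed without early-stage replicate 3 (-0.0481) or late-stage replicate 1 (-0.0282), and reached 0.156. The 6 ratios within libraries kept their direction with each library left out and as ratios of counts summed over a group, the alternatives run for them, and scaling by RLE or upper quartiles turned no member's direction. The cause of these shifts was not tested. Having 3 samples a group limits the calls for small differences such as those of Nlrp3, Il18 and Pycard.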
